A study of Mus musculus with 6 samples.

Results

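Receptor tyrosine kinases are single-pass membrane proteins that bind growth factors outside the cell and phosphorylate tyrosines inside it. Ligand binding brings receptor chains together, the kinases phosphorylate each other, and adaptor proteins docked on these sites pass the signal to the RAS-MAP kinase and PI3 kinase chains. In melanocytes the best known member is KIT, whose ligand is stem cell factor, and MET and the FGF receptors are further routes by which keratinocytes and fibroblasts signal to pigment cells. The expression of 34 mouse genes of the family other than Kit was followed here: the FGF receptors, the MET, TAM and ERBB families, the insulin receptor, the PDGF, CSF1 and FLT3 receptors, the VEGF and angiopoietin receptors, neurotrophin and related receptors, and receptors for collagen or Wnt-type ligands. The genes were chosen by name from the family, and all 34 were found among the 21368 genes that the RefSeq accessions of the arrays' probes name, with 54 of the 55681 probes.

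There were 3 K14-SCF Tg samples, set against 3 wild-type (WT) samples. In the transgenic line stem cell factor is made in basal keratinocytes under the keratin 14 promoter. All 6 held melanocyte stem cells of male mice, taken from skin as cells with green fluorescence and low side scatter, and each was read on its own 1-colour Agilent array. Neither the strain, the age nor the source of the green fluorescence is given in the labels, nor is it stated that the numbered replicates are different animals. The p-values therefore measure only how these samples spread, and that spread may be technical. Each level is a probe's processed signal on the log2 scale, less the 75th percentile of its array, given for replicates 1, 2 and 3 in turn, and a log2 fold change is K14-SCF Tg minus WT. A probe counts as detected where the scanner software flagged it as well above background, and each gene is read by its brightest probe. Probes differ in brightness for reasons of their own, so the levels of different genes were not compared.

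Each array detected between 78.4% and 87.1% of the probes and had 0 saturated spots. With 3 arrays a genotype, the number of arrays is one limit on the precision. The lowest detected level lay between -6.58 and -5.75. Of 12 melanocyte markers, 11 were detected on all 6 arrays, among them Dct, Tyr and Sox10, and Oca2 on none. Kit itself stood at 3.87, 4.10 and 3.44 in K14-SCF Tg, against 4.35, 4.47 and 3.97 in WT (log2 fold change -0.46, SE 0.28, 95% interval -1.15 to 0.23). Transcripts of other skin cells were detected too: all 15 fibroblast, all 14 endothelial, all 15 keratinocyte and all 17 leukocyte markers were detected on at least 1 array. Since several receptors are themselves typical of those cells, the marker levels are given beside them, and a smaller number of such cells cannot be told apart from less RNA per cell.

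Of the 34 receptor genes, 23 were detected on all 6 arrays (67.6%, against 75.5% of all named genes), 7 on 3 to 5 arrays, Erbb4 and Ror2 on 1 array, and Ret and Musk on none (2 of 34, against 6.91% of all named genes). These shares are over the 21366 named genes with a usable probe on every array. The 30 detected on at least 3 arrays were tested (88.2%, against 86.0% of all named genes). No receptor gene passed the test between the genotypes: limma called 0 of the 30 higher and 0 lower at an adjusted p under 0.05, where it called 0.00544% of the 18368 tested genes higher and 0% lower. At an unadjusted p under 0.05 the count was 0 of 30, where 5.42% of all tested genes passed, 2.85% higher and 2.56% lower. Adjusted p-values of the 30 lay between 0.918 (Ddr2) and 1.00. Their median log2 fold change was -0.012, the same as the -0.012 of all tested genes, with 14 positive and 16 negative. The arrays of the genotypes did not overlap for 1 of the 30 (Fgfr4, lower in K14-SCF Tg), or 3.33%, where they did not overlap for 10.5% of all tested genes, 5.13% with K14-SCF Tg higher and 5.41% with K14-SCF Tg lower.

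A p that misses the threshold does not show that the genotypes are alike. The 95% intervals of the fold changes give the range of differences compatible with these arrays. They are not adjusted for the number of probes, so they do not tell which differences limma would have called. For 9 genes (Fgfr1, Fgfr3, Tyro3, Insr, Csf1r, Kdr, Ddr1, Ntrk2 and Ltk) the interval of the brightest probe lay within 1 log2 unit of 0, a 2-fold change. For the other 21 it reached further. The 9 hold for the brightest probe alone. At least 1 other probe of Fgfr1, Fgfr3, Tyro3, Insr, Csf1r and Ntrk2 had an interval that reached further, such as -0.30 to 3.54 for Csf1r. The second Kdr probe was not tested, and Ddr1 and Ltk had 1 probe each. The precision went with detection: from the fold change to either end of the interval, the median distance was 0.93 for the 23 genes detected on all 6 arrays and 2.77 for the 7 detected on fewer. The SD between replicates had medians of 0.52 in K14-SCF Tg and 0.40 in WT for the 23, and of 2.01 in K14-SCF Tg and 1.50 in WT for the 7.

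**Figure D1:**
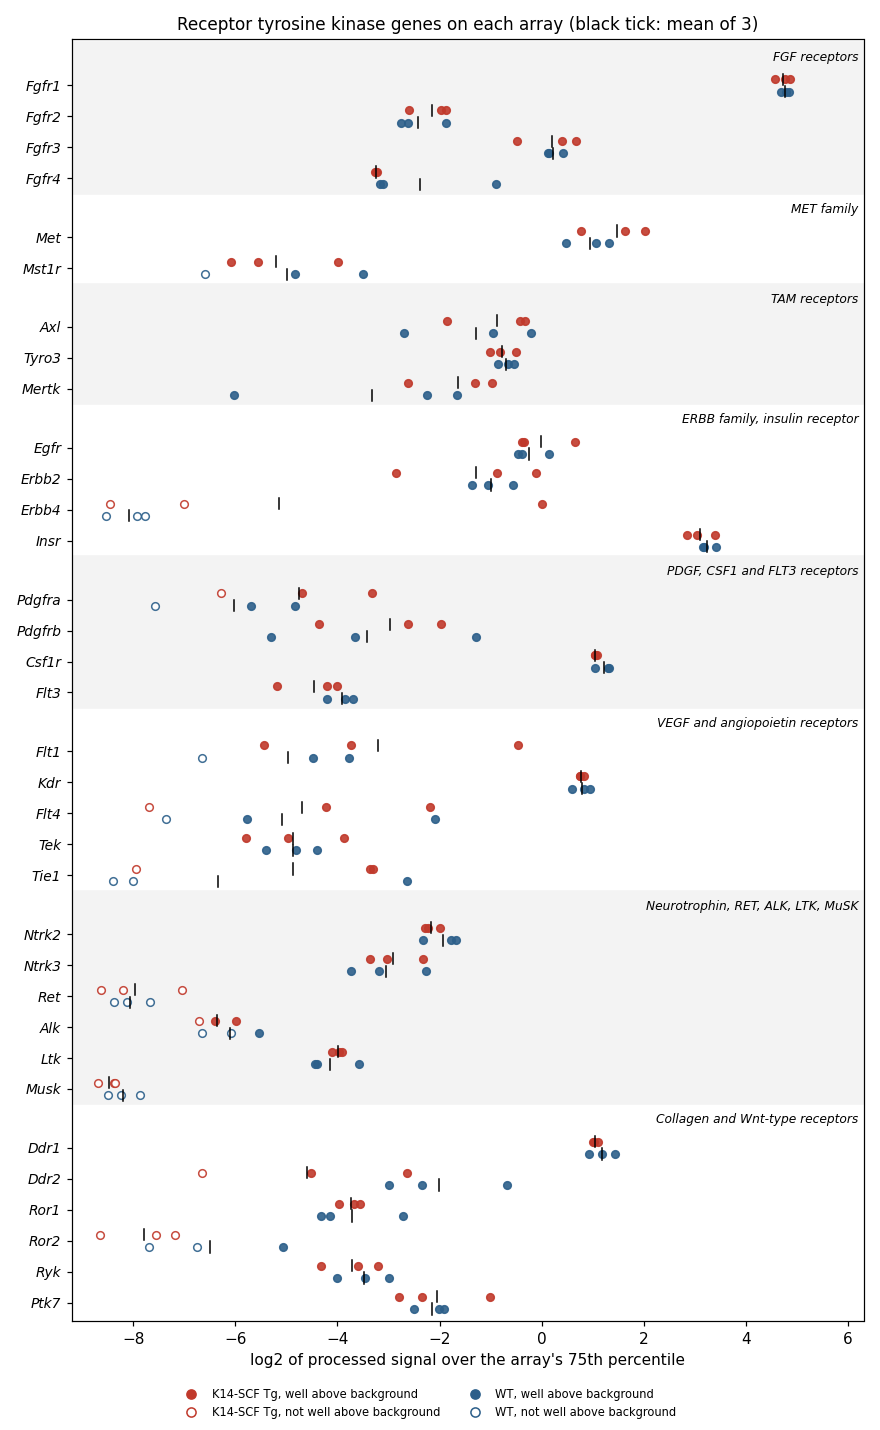
Level of each of the 34 receptor genes on each array (log2 signal, less the array's 75th percentile), with K14-SCF Tg above WT for each gene. Filled points are well above background, open points are not, and black ticks are means of 3 arrays; Fgfr1, Insr, Kdr, Csf1r and Ddr1 form tight groups that coincide between genotypes, while Flt4, Tie1 and Mertk are spread over several log2 units within a genotype.

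**Figure D2:**
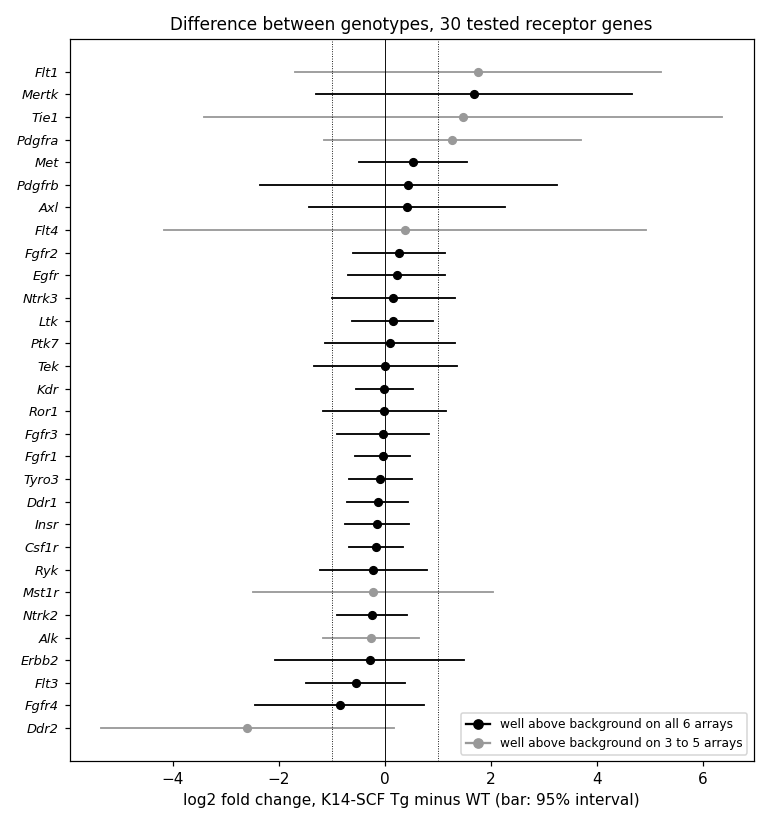
Log2 fold change of K14-SCF Tg minus WT for the 30 tested receptor genes, ordered by size, with its 95% interval as a bar. Black genes were well above background on all 6 arrays and grey ones on 3 to 5; dotted lines mark a change of 1 log2 unit, and every interval includes 0.

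The FGF receptors take up fibroblast growth factors with heparan sulfate as a co-factor, and FGF2 is a mitogen of cultured melanocytes. All 4 were detected on all 6 arrays and none was called. Fgfr1, the member usual in mesenchymal and neural crest cells, stood at 4.76, 4.56 and 4.85 in K14-SCF Tg, against 4.79, 4.69 and 4.84 in WT. The arrays lay within a narrow band and overlapped, with a log2 fold change of -0.047 (SE 0.21, 95% interval -0.57 to 0.47). Its other probes gave log2 fold changes of -0.47 and -0.63, with overlapping genotypes. Fgfr2, the receptor through which fibroblasts signal to epithelium, had levels of -1.97, -1.87 and -2.60 in K14-SCF Tg, against -2.76, -2.62 and -1.87 in WT, which overlapped (log2 fold change 0.27, SE 0.35, 95% interval -0.60 to 1.14). Fgfr3, known for restraining bone growth, read 0.39, 0.67 and -0.48 in K14-SCF Tg, against 0.14, 0.42 and 0.13 in WT (log2 fold change -0.034, SE 0.35, 95% interval -0.90 to 0.84), the lowest value being that of Tg replicate 3. Its second probe gave 0.80 with the opposite sign. Fgfr4 was at -3.24, -3.27 and -3.22 in K14-SCF Tg, against -3.11, -3.17 and -0.89 in WT. The WT arrays were all above the K14-SCF Tg arrays, but replicates 1 and 2 by no more than a small step and replicate 3 by over 2 log2 units, so the log2 fold change of -0.86 (SE 0.65, 95% interval -2.45 to 0.73) rested on 1 array. Without WT replicate 3 it was -0.11. The second Fgfr4 probe overlapped between the genotypes and gave -0.35 (SE 0.30).

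Among the FGF genes, Fgf9, an FGF that signals to epithelial and mesenchymal cells in many organs, was detected on 0 of the 3 K14-SCF Tg arrays (-6.65, -8.70 and -8.50) and on 3 of the 3 WT arrays (-5.91, -2.85 and -4.69). By the means of the arrays Fgf9 was at least 3.84-fold lower in K14-SCF Tg, and it was not called (limma, adjusted p = 0.691). For each K14-SCF Tg array the higher of its own signal and the lowest detected signal was taken. This fold has no error, and WT replicate 1 (-5.91) lay close to the lowest detected level of its array (-6.18). Fgf9 passed the filter on detection through the WT arrays alone, so its p rests on K14-SCF Tg values that were not well above background. Fgf1, a broad ligand of the family, read -1.87, -2.07 and -3.32 in K14-SCF Tg, against -1.98, -1.52 and -1.09 in WT (log2 fold change -0.89, SE 0.47, 95% interval -2.05 to 0.27). Fgf2 gave 0.63 (SE 0.57) and Fgf18, a ligand of Fgfr3, -0.20 (SE 0.48), both detected on all 6 arrays. Fgf7, the fibroblast signal to keratinocytes, was detected on 3 of 3 K14-SCF Tg and 2 of 3 WT arrays and gave 0.62 (SE 0.73). Fgf5 and Fgf10 were each detected on 1 of 3 K14-SCF Tg arrays and 0 of 3 WT arrays.

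MET binds hepatocyte growth factor and drives growth and migration of pigment cells, and its gene was detected on all 6 arrays. Met stood at 0.77, 1.63 and 2.02 in K14-SCF Tg, against 1.05, 0.47 and 1.32 in WT. The highest K14-SCF Tg arrays lay above every WT array and the lowest one among them, and the log2 fold change was 0.53 (SE 0.42, 95% interval -0.50 to 1.55). The Met probe is printed 10 times on each array, with an SD between spots of 0.055 to 0.105, which holds the reading error alone and no error of labelling or hybridization, where the SD between arrays was 0.64 in K14-SCF Tg and 0.44 in WT. Mst1r, which encodes the related receptor RON, was detected on 3 of 3 K14-SCF Tg and 2 of 3 WT arrays, at -6.09, -5.55 and -3.99 in K14-SCF Tg, against -6.60, -3.50 and -4.83 in WT (log2 fold change -0.23, SE 0.92, 95% interval -2.50 to 2.03). Its arrays ran over about the same range in both genotypes. Hgf, the ligand of MET, was detected on no array, and Mst1, the ligand of RON, on all 6 (log2 fold change 0.78, SE 0.77).

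The TAM receptors AXL, TYRO3 and MERTK bind GAS6 and protein S, clear dying cells and damp innate immune signals. In human melanoma TYRO3 has been tied to MITF, and AXL to cells with little of it. Tyro3 was the steadiest of the 3 here, at -0.82, -0.51 and -1.02 in K14-SCF Tg, against -0.67, -0.86 and -0.55 in WT. Its groups overlapped, with a log2 fold change of -0.092 (SE 0.24, 95% interval -0.69 to 0.51), and its other probe gave -0.15. Axl read -0.33, -0.43 and -1.85 in K14-SCF Tg, against -0.21, -2.70 and -0.95 in WT (log2 fold change 0.42, SE 0.75, 95% interval -1.44 to 2.27). A single array of each genotype (Tg replicate 3 and WT replicate 2) was well below the others, and without WT replicate 2 the sign turned (-0.29). Mertk, typical of phagocytes, stood at -0.98, -2.62 and -1.30 in K14-SCF Tg, against -1.66, -6.03 and -2.25 in WT. WT replicate 2 was over 3 log2 units below every other array, the log2 fold change was 1.68 (SE 1.21, 95% interval -1.30 to 4.67), and without that array it was 0.33. Of the ligands, Pros1, the gene of protein S, had all K14-SCF Tg arrays (1.83, 2.45 and 2.55) below all WT arrays (3.11, 2.74 and 2.97), with a log2 fold change of -0.66 (SE 0.28, 95% interval -1.36 to 0.039) that was not called (limma, adjusted p = 0.918). Gas6 gave 0.17 (SE 0.34), with overlapping arrays.

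The ERBB receptors answer the EGF family of ligands, which keratinocytes release in wounded skin. Egfr stood at 0.65, -0.34 and -0.38 in K14-SCF Tg, against -0.47, -0.39 and 0.13 in WT, with Tg replicate 1 highest and the rest intermixed (log2 fold change 0.22, SE 0.37, 95% interval -0.70 to 1.13). Its 3 probes did not give 1 answer. A probe for another transcript of the gene, printed 10 times, read -2.58, -5.10 and -6.68 in K14-SCF Tg, against -5.62, -5.28 and -7.66 in WT (log2 fold change 1.40, SE 1.17, 95% interval -1.48 to 4.28), and the remaining probe gave -1.05 (SE 0.80). Erbb2, the partner that has no ligand of its own, was at -2.85, -0.89 and -0.11 in K14-SCF Tg, against -1.05, -0.57 and -1.36 in WT. Tg replicate 1 was lowest and Tg replicate 3 highest of all 6 arrays, so that the K14-SCF Tg arrays enclosed the WT ones (log2 fold change -0.29, SE 0.72, 95% interval -2.07 to 1.49). This probe too is printed 10 times, with an SD between spots of 0.050 to 0.102, against an SD between arrays of 1.41 in K14-SCF Tg and 0.40 in WT. Erbb4, a neuregulin receptor, was detected on 1 array, Tg replicate 3. Its levels were -8.45, -7.01 and 0.0010 in K14-SCF Tg, against -7.77, -8.53 and -7.92 in WT, and it was not tested. Tg replicates 1 and 2 were undetected, as were all WT arrays, so the difference rests on that 1 array and no fold is given.

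Of the EGF family ligands, Hbegf, the heparin-binding form, was detected on all 6 arrays (log2 fold change 0.31, SE 0.27). Egf gave 0.70 (SE 0.66) and Nrg1 0.34 (SE 0.28). Nrg4, a ligand of ERBB4, had all K14-SCF Tg arrays (-2.84, -4.21 and -3.80) above all WT arrays (-4.46, -4.78 and -5.26), with a log2 fold change of 1.22 (SE 0.43, 95% interval 0.16 to 2.28), and was not called (limma, adjusted p = 0.869). Areg was detected on 1 of 3 K14-SCF Tg and 0 of 3 WT arrays, and Ereg and Btc on none. Tgfa gave -0.19 (SE 0.22) and Nrg2 -0.28 (SE 0.38). Insr, the insulin receptor gene, stood at 3.04, 3.40 and 2.85 in K14-SCF Tg, against 3.15, 3.40 and 3.18 in WT, in a narrow band with full overlap (log2 fold change -0.15, SE 0.24, 95% interval -0.75 to 0.45). A second Insr probe had all K14-SCF Tg arrays (0.45, 0.56 and 0.65) below all WT arrays (1.28, 0.86 and 0.87), with a log2 fold change of -0.45 (SE 0.23), and another gave 0.12. Igf2, a growth factor that can bind the insulin receptor, gave 0.76 (SE 0.85), and Igf1 -0.024 (SE 0.33). Keratinocyte markers are given here because keratinocytes carry EGFR, ERBB2 and RON. They summed to a linear level of 135 to 146 in K14-SCF Tg and 117 to 147 in WT. Of the 15 markers, 12 were detected on all 6 arrays and none was absent. Such a sum, here and for the other cell types, is set mainly by the brightest probes. The median log2 fold change of the 15 markers was 0.087, with 8 positive and 7 negative and none called. Their part in the receptor values was not tested.

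The PDGF receptors mark fibroblasts (PDGFRA) and pericytes (PDGFRB), CSF1R marks macrophages, and FLT3 dendritic and progenitor cells. Pdgfra was detected on 2 K14-SCF Tg and 2 WT arrays, at -4.69, -3.32 and -6.28 in K14-SCF Tg, against -5.69, -4.83 and -7.56 in WT (log2 fold change 1.27, SE 0.99, 95% interval -1.16 to 3.69). Replicate 3 was lowest in both genotypes. Pdgfrb, detected on all 6 arrays, also had its lowest array of each genotype in replicate 3, at -1.97, -2.62 and -4.36 in K14-SCF Tg, against -3.66, -1.29 and -5.31 in WT (log2 fold change 0.44, SE 1.14, 95% interval -2.36 to 3.24). WT replicate 2 was highest and WT replicate 3 lowest, so the WT arrays enclosed the K14-SCF Tg ones, and without WT replicate 3 the sign turned (-0.50). Of the PDGF ligand genes, Pdgfa gave a log2 fold change of -0.43 (SE 0.39), Pdgfb 0.25 (SE 0.27), Pdgfc no test (detected on 0 K14-SCF Tg and 1 WT arrays) and Pdgfd 0.27 (SE 0.77).

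Fibroblast markers stood at a summed linear level of 13.7 to 25.4 in K14-SCF Tg and 31.9 to 77.7 in WT, of 15 markers with 14 detected on all 6 arrays and none absent. These ranges did not overlap, with K14-SCF Tg lower. The log2 fold change of Pdgfra was positive, but its interval (-1.16 to 3.69) held both signs, so its direction is not settled. Ddr2, a further receptor of fibroblasts, gave -2.60 by its brightest probe (interval -5.37 to 0.17) and 0.24 by its second. The median log2 fold change of the 15 markers was -1.04, with 11 negative and 4 positive and none called by limma (6 of 15 at an unadjusted p under 0.05, all lower, where 2.56% of all tested genes were lower at that p). Pericyte and muscle markers summed to a level of 103 to 110 in K14-SCF Tg and 99.9 to 119 in WT, with 10 of 12 detected on all 6 arrays. Their median log2 fold change was 0.22, with 7 positive and 5 negative. The most negative of them, Rgs5, a pericyte marker, was detected on 1 of 3 K14-SCF Tg arrays (-6.86, -2.73 and -8.34) and on 3 of 3 WT arrays (-0.82, -3.26 and -2.37). The part of these cells in the PDGF receptor values was not tested.

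Csf1r was among the steadiest receptor genes by its brightest probe, at 1.03, 1.07 and 1.04 in K14-SCF Tg, against 1.30, 1.05 and 1.32 in WT (log2 fold change -0.17, SE 0.21, 95% interval -0.68 to 0.34). Its other probes were less even. The second read 0.62, -1.32 and 0.15 in K14-SCF Tg, against -2.31, -2.70 and -0.39 in WT, a log2 fold change of 1.62 (SE 0.78), and the last gave -0.15 (SE 0.67). Flt3 stood at -4.21, -4.00 and -5.19 in K14-SCF Tg, against -3.70, -3.84 and -4.20 in WT (log2 fold change -0.56, SE 0.38, 95% interval -1.49 to 0.38), with K14-SCF Tg lower in most but not all pairs of arrays, while its second probe gave the opposite sign (0.55). Csf1, the main ligand of CSF1R, gave -0.14 (SE 0.40), and Il34, its ligand from keratinocytes, -1.32 (SE 0.74). Flt3l, the ligand of FLT3, gave -0.16 (SE 0.73). Leukocyte markers summed to a level of 192 to 204 in K14-SCF Tg and 163 to 213 in WT, with 15 of 17 detected on all 6 arrays and none absent. The 17 markers had a median log2 fold change of 0.11, with 10 positive and 7 negative, from -1.61 to 2.35, and none was called. Their part was not tested.

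The VEGF receptors (Flt1, Kdr, Flt4) and the angiopoietin receptors (Tek, Tie1) define blood and lymph vessel cells. Kdr, the main VEGF receptor, was steady by its brightest probe, at 0.83, 0.75 and 0.75 in K14-SCF Tg, against 0.59, 0.95 and 0.83 in WT (log2 fold change -0.011, SE 0.22, 95% interval -0.54 to 0.52). Its other probe, for the same transcript and printed 10 times, was detected on 0 of 3 K14-SCF Tg arrays and on 2 of 3 WT arrays. It read -8.27, -8.54 and -7.87 in K14-SCF Tg, against -8.16, -3.29 and -2.63 in WT. The detected arrays were WT replicates 2 and 3, where the SD between spots was 0.14 and 0.23, below the gap to the other arrays. WT replicate 1 was undetected like the K14-SCF Tg arrays, so the difference rests on 2 WT arrays and no fold is given. This probe was not tested, since it was detected on fewer than 3 arrays. The probes of Kdr differed in their pattern over the same 6 RNA samples.

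Flt1, a VEGF receptor that also acts as a decoy, was detected on 3 of 3 K14-SCF Tg and 2 of 3 WT arrays, at -3.73, -5.44 and -0.47 in K14-SCF Tg, against -6.65, -4.49 and -3.77 in WT. Tg replicate 3 was highest by over 3 log2 units (log2 fold change 1.75, SE 1.41, 95% interval -1.70 to 5.21, and 0.38 without that array). Flt4, the receptor of lymph vessels, was detected on 2 K14-SCF Tg and 2 WT arrays, at -4.23, -2.18 and -7.69 in K14-SCF Tg, against -5.77, -7.36 and -2.10 in WT, a spread of over 5 log2 units within both genotypes (log2 fold change 0.38, SE 1.85, 95% interval -4.17 to 4.92). Tek, the receptor TIE2, was detected on all 6 arrays, at -4.96, -5.79 and -3.87 in K14-SCF Tg, against -5.41, -4.41 and -4.82 in WT (log2 fold change 0.0022, SE 0.55, 95% interval -1.35 to 1.35). Tie1 was detected on Tg replicates 1 and 3 and on WT replicate 2, at -3.36, -7.94 and -3.31 in K14-SCF Tg, against -8.40, -2.64 and -8.00 in WT (log2 fold change 1.48, SE 1.99, 95% interval -3.41 to 6.37). Its arrays fell into detected ones near -3 and undetected ones near -8, with both kinds in each genotype.

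Vegfa, the main growth factor of blood vessels, stood at 2.76, 1.79 and 3.07 in K14-SCF Tg, against 2.80, 2.04 and 3.28 in WT (log2 fold change -0.17, SE 0.48). Angpt2, an antagonist of TIE2 in resting vessels, had all K14-SCF Tg arrays (-0.55, -0.77 and -1.47) below all WT arrays (-0.13, 0.41 and -0.080), with a log2 fold change of -0.99 (SE 0.33, 95% interval -1.81 to -0.18), and was not called (limma, adjusted p = 0.845). Angpt1, the activating ligand of TIE2, was detected on 1 of 3 arrays of each genotype. Vegfb gave 0.21, Vegfc 0.022, Vegfd -0.15 and Pgf 0.68. Endothelial markers summed to a level of 1.51 to 2.60 in K14-SCF Tg and 2.16 to 5.48 in WT, with 9 of 14 detected on all 6 arrays. The 13 tested had a median log2 fold change of -0.67, with 9 negative and 4 positive, from -2.15 to 2.56, and none was called. No endothelial marker was absent from all arrays. Cdh5 was detected on 1 of 3 K14-SCF Tg and 3 of 3 WT arrays, and Erg on 0 of 3 K14-SCF Tg and 1 of 3 WT arrays. Their part in the VEGF receptor values was not tested.

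**Figure D3:**
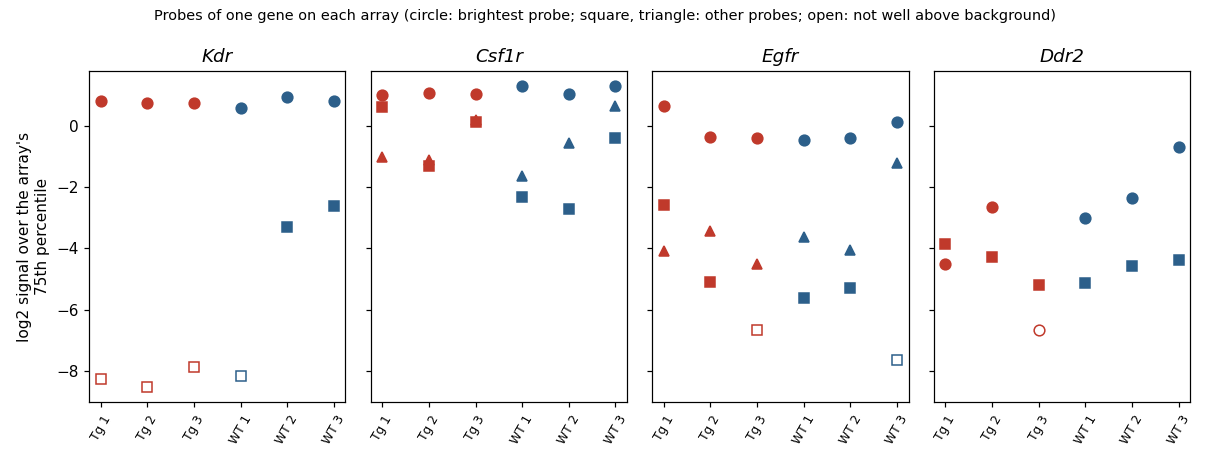
Level of every probe of Kdr, Csf1r, Egfr and Ddr2 on the 3 K14-SCF Tg arrays (red, left) and the 3 WT arrays (blue, right), as log2 of the signal over the array's 75th percentile. The brightest probes (circles) of Kdr and Csf1r are level across all 6 arrays while a second probe (squares) of each is not, and open symbols are not well above background.

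The neurotrophin receptors NTRK2 and NTRK3 serve neurons and glia of the same neural crest origin as melanocytes. Ntrk2 stood at -1.99, -2.29 and -2.24 in K14-SCF Tg, against -1.68, -2.33 and -1.77 in WT (log2 fold change -0.25, SE 0.27, 95% interval -0.91 to 0.42), and Ntrk3 at -3.36, -2.33 and -3.03 in K14-SCF Tg, against -3.73, -3.18 and -2.27 in WT (log2 fold change 0.15, SE 0.47, 95% interval -1.01 to 1.31). Both overlapped between the genotypes. The 3 tested probes of Ntrk3 lay within 0.084 of each other in log2 fold change. Ltk, close kin of ALK and named LTK for leukocytes, stood at -4.11, -3.97 and -3.91 in K14-SCF Tg, against -4.41, -4.43 and -3.57 in WT (log2 fold change 0.14, SE 0.31, 95% interval -0.62 to 0.90). Alk itself was near the detection limit, detected on 2 of 3 K14-SCF Tg and 1 of 3 WT arrays, at -6.70, -6.40 and -5.99 in K14-SCF Tg, against -5.54, -6.66 and -6.09 in WT (log2 fold change -0.27, SE 0.37, 95% interval -1.18 to 0.64). Ret, the receptor of GDNF in the enteric nervous system, was detected on no array, at -7.05, -8.64 and -8.19 in K14-SCF Tg, against -8.12, -8.37 and -7.67 in WT, and Musk, the organiser of the nerve-muscle synapse, on none either, at -8.38, -8.69 and -8.36 in K14-SCF Tg, against -8.24, -8.50 and -7.86 in WT. RET needs a co-receptor of the GFRA group to bind its ligands. Gfra1 and Gfra2 were detected on all 6 arrays, with log2 fold changes of 0.17 (SE 0.67) and 0.023 (SE 0.94). Gdnf gave -0.40, Bdnf, the ligand of NTRK2, -0.32, and Ntf3, the ligand of NTRK3, -0.049. Schwann cell markers summed to a level of 82.6 to 86.4 in K14-SCF Tg and 64.5 to 81.5 in WT, with 10 of 12 detected on all 6 arrays and none absent. These ranges did not overlap, with K14-SCF Tg higher, but the lowest K14-SCF Tg sum lay close to the highest WT sum. The mean log2 levels of the 12 markers did overlap, at -0.11, 0.22 and -0.0040 in K14-SCF Tg, against -0.31, -0.49 and 0.035 in WT. The median log2 fold change of the 12 markers was 0.24, with 11 positive and 1 negative and none called. By limma 2 of the 12 were higher at an unadjusted p under 0.05 and 0 lower, where 2.85% of all tested genes were higher. Their part in these values was not tested.

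DDR1 and DDR2 are receptors for collagen, and DDR1 helps human melanocytes to hold on to the basement membrane. Ddr1 was steady, at 1.11, 1.01 and 1.00 in K14-SCF Tg, against 1.18, 1.44 and 0.92 in WT (log2 fold change -0.14, SE 0.23, 95% interval -0.71 to 0.43). Ddr2, the member of fibroblasts, had the log2 fold change farthest from 0 and the smallest p of the 30 tested genes. Its brightest probe read -4.52, -2.64 and -6.66 in K14-SCF Tg, against -3.00, -2.34 and -0.68 in WT, with Tg replicate 3 below background. Tg replicate 2 lay among the WT arrays, the log2 fold change was -2.60 (SE 1.13, 95% interval -5.37 to 0.17), and it was not called (limma, adjusted p = 0.918). Its second probe read -3.86, -4.27 and -5.19 in K14-SCF Tg, against -5.12, -4.56 and -4.37 in WT, on all 6 arrays above background, and had the opposite sign (0.24, SE 0.42). With probes detected on all 6 arrays alone, this second probe stands for the gene, so the sign of Ddr2 turns with the probe read. Of the fibroblast markers, whose summed level is given above, the collagen gene Col1a2 was not called either (3.45, 2.12 and 2.32 in K14-SCF Tg, against 5.13, 4.66 and 3.71 in WT, log2 fold change -1.87, limma, adjusted p = 0.719), though its arrays did not overlap. The 15 markers ran from -2.31 to 2.19, with 11 negative and 4 positive. In 5 of them all K14-SCF Tg arrays were below all WT arrays, and in 1 above. Over all tested genes these shares were 5.41% below and 5.13% above. The part of fibroblasts in the Ddr2 values was not tested.

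ROR1, ROR2, RYK and PTK7 act in Wnt signalling, ROR2 as a receptor of WNT5A, and RYK and PTK7 carry kinase domains thought to be inactive. Ror1 stood at -3.56, -3.68 and -3.98 in K14-SCF Tg, against -4.32, -4.14 and -2.72 in WT (log2 fold change -0.013, SE 0.47, 95% interval -1.17 to 1.15). WT replicate 3 was the highest and the other WT arrays were the lowest, so they enclosed the K14-SCF Tg arrays. Ror2 was detected on 1 array, WT replicate 2, with levels of -7.17, -8.65 and -7.55 in K14-SCF Tg, against -6.74, -5.06 and -7.69 in WT, and was not tested. Ryk read -3.21, -3.59 and -4.32 in K14-SCF Tg, against -2.99, -3.46 and -4.01 in WT (log2 fold change -0.22, SE 0.41, 95% interval -1.23 to 0.78), and Ptk7 -1.02, -2.79 and -2.35 in K14-SCF Tg, against -2.50, -1.91 and -2.01 in WT (log2 fold change 0.091, SE 0.50, 95% interval -1.14 to 1.32). Both overlapped. Wnt5a had all K14-SCF Tg arrays (-1.44, 0.19 and -0.34) above all WT arrays (-1.62, -1.83 and -2.02), with a log2 fold change of 1.29 (SE 0.45, 95% interval 0.18 to 2.40), and was not called (limma, adjusted p = 0.868).

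Around the receptors, lists of ligands, co-receptors, adaptors and restraints were read in the same way, and limma called 0 genes in each list in either direction. Of 52 ligand genes 42 were tested, with a median log2 fold change of 0.0087, 21 positive and 21 negative. Among ligands detected in both genotypes, Nrg4 and Wnt5a (higher) and Angpt2 (lower) had an unadjusted p under 0.05, which 5.42% of all tested genes had (2.85% higher and 2.56% lower). Fgf9 is left out of these, since it was detected in WT alone. Of 19 co-receptors 17 were tested (median 0.0080). Gfra3, the artemin co-receptor, had the smallest p, at -1.66 (SE 1.00), detected on 1 of 3 K14-SCF Tg and 2 of 3 WT arrays, and was followed by Nrp1, the VEGF and semaphorin co-receptor, at -1.31 (SE 0.92), and Gpc3 at -0.41 (SE 0.31).

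Of 31 adaptors 29 were tested (median 0.0018), and 1 of the 29 had an unadjusted p under 0.05, where 5.42% of all tested genes did, so the share was not above that of all genes. The gene was Frs2, the docking protein of FGF receptors, with all K14-SCF Tg arrays (0.88, 0.84 and 0.81) below all WT arrays (1.65, 1.43 and 1.19) and a log2 fold change of -0.58 (SE 0.22, 95% interval -1.13 to -0.028) (limma, adjusted p = 0.893). Gab1, the docking protein of MET, stood at 3.10, 3.20 and 3.77 in K14-SCF Tg, against 4.15, 3.65 and 4.50 in WT (log2 fold change -0.75, SE 0.33, 95% interval -1.56 to 0.068), and Pik3r2 gave -0.58 (SE 0.34). The restraints, which take receptors off the surface or block their signal, numbered 28, with 27 tested and a median of -0.085. The 3 smallest p-values among them belonged to the LRIG genes, whose products bind ERBB and other receptors, with Lrig1 the best known for promoting their degradation. Lrig1 read -1.36, -1.51 and -0.77 in K14-SCF Tg, against -0.39, -0.50 and -0.91 in WT, and the log2 fold changes were -0.61 (SE 0.30) for Lrig1, -0.78 (SE 0.39) for Lrig2 and -0.67 (SE 0.34) for Lrig3. All 3 overlapped between the genotypes, and none was called (limma, adjusted p between 0.933 and 0.936).

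Several tested probes were available for 12 receptor genes, and in 7 of them (Csf1r, Ddr2, Egfr, Fgfr3, Flt3, Insr and Ntrk2) the probes differed in the sign of the log2 fold change. That is 58.3%, where the share was 45.3% over the 4855 tested genes with several probes. In the other 5 (Fgfr1, Fgfr2, Fgfr4, Ntrk3 and Tyro3) the signs were alike. The widest gaps between probes of 1 gene were 2.84 for Ddr2, 2.45 for Egfr and 1.79 for Csf1r, and the median gap was 0.60 for the receptor genes, against 0.45 for all genes with several probes.

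The arrays lay on 2 slides, with WT replicate 1 alone on its own, and in 2 rows of the slides, with Tg replicate 3 and WT replicate 3 in row 2. WT replicate 1 was also scanned on another date than the other arrays, so slide and scan date cannot be told apart. Row and replicate number 3 cannot be told apart here. The row 2 arrays stood apart from all row 1 arrays for 7 of the 30 receptor genes, or 23.3%, where they did for 23.8% of all tested genes. Row 2 was lower for Pdgfra (a difference of mean levels of -2.29), Pdgfrb (-2.45), Ryk (-0.85), Fgfr3 (-0.58) and Ddr1 (-0.23), and higher for Ltk (0.49) and Fgfr1 (0.15). Each genotype has 1 array in row 2, so the row as a covariate cannot change a log2 fold change, only its error. With it Pdgfra, at 1.27 by design, was not called (limma, adjusted p = 0.733). Within the slide that holds both genotypes the median over the 30 genes was -0.080 and limma called 0 of them.

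**Figure D4:**
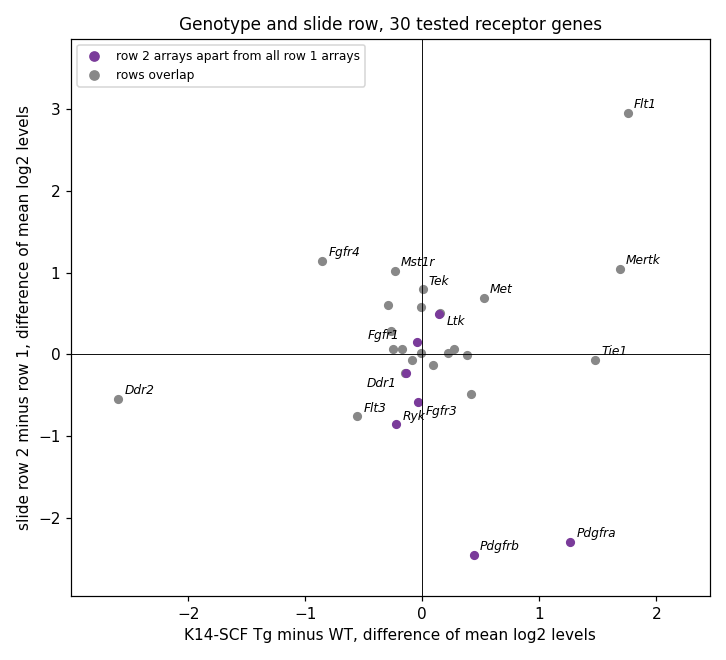
Difference of mean log2 levels between slide row 2 and row 1 (vertical) against that between K14-SCF Tg and WT (horizontal) for the 30 tested receptor genes. Purple genes have both row 2 arrays outside the range of the 4 row 1 arrays; Pdgfra and Pdgfrb differ more by row than by genotype, and the points of the remaining purple genes lie within 1 log2 unit of 0 on both axes.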

How the data were processed

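Processed intensities of the 6 arrays, background-subtracted and detrended within each array but not normalized between arrays, were made by the authors with Agilent Feature Extraction 10.7.1.1, per the file headers and the submitters' processing notes. The median pixel intensity of spot and local background, and the 0 or 1 flags per spot, were used as deposited. The authors' deposited value table is a linear ratio: each column equals the processed signal over 1 constant per array (100% of values within 0.001 of it). Its scale and direction are thus known, it is not centred per gene, and its column medians ran from 0.169 to 0.188. No source used here says how that constant was set.

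The log2 signals of a probe's spots were averaged without outlier spots, and a probe counted as detected where at least 50% of its spots were flagged. The 75th percentile over 55681 non-control probes was subtracted. Probes detected on at least 3 arrays (47709) were tested with limma 3.58.1 in R 4.3.3, 2-sided, with Benjamini-Hochberg adjustment over all of them. The prior added 1.91 degrees of freedom to 4. Genes were named by RefSeq accession through a gene table of assembly GRCm38.p6, another build than the files' mm9, so no coordinates are given. A gene is its brightest tested probe. Members and lists were chosen with earlier results of these data known. The rule for full values (detected on at least 5 arrays, no overlap, unadjusted p under 0.05, or detection differing by 2 arrays) took 26 genes; the others were added after their values were seen, as were the probes shown beside the brightest. The fit was tested on simulated data. Alternatives covered scaling, background correction, filters, slide, row, replicate number, variance, array weights, probes and left-out arrays.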

Additional observations from a re-analysis of the deposited data

How the results depend on the processing

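In each of 19 other fits, and at an adjusted p under 0.10, limma called 0 receptor genes higher and 0 lower. Adjusted p-values reached down to 0.726. The median log2 fold change of the receptor genes ran from -0.098 (median centring, where the median of all genes was -0.098 too) to 0.089 (without Tg replicate 3), and between -0.080 and 0.089 without any 1 array. Of the 30 genes, 11 kept the sign of their log2 fold change in every fit, among them Ddr1, Fgfr2, Fgfr4, Insr, Mertk and Met. The sign turned in 19, none of them called in any fit. The replicate block, the slide row as a covariate and the trend and robust variance cannot change a fold change in this design. Kept signs in these fits were therefore fixed in advance. Slide as a block gave 0.0072 for Alk, -0.18 for Ntrk3, -0.088 for Ptk7, 0.026 for Ryk and -0.26 for Tek. Since WT replicate 1 is alone on its slide, this fit gave the same receptor fold changes as the fit without that array. It is therefore no separate evidence beside that fit. The mean of a gene's probes gave 0.43 for Csf1r and 0.38 for Fgfr3. The filter for all 6 arrays gave 0.24 for Ddr2. Normexp with quantile normalization gave 0.013 for Fgfr1. Array weights gave 0.063 for Fgfr3, 0.13 for Ror1 and -0.18 for Tek. Quantile normalization gave 0.027 for Kdr and -0.072 for Tek. Median centring gave -0.084 for Tek. The authors' deposited values gave -0.017 for Tek. With 1 array left out at a time, the genes whose sign turned in such a fit ranged from -0.55 to 0.0072 for Alk, -0.29 to 0.95 for Axl, -0.12 to 0.41 for Egfr, -0.88 to 0.49 for Erbb2, -0.11 to 0.036 for Fgfr1, -0.27 to 0.30 for Fgfr3, -0.88 to 1.87 for Flt4, -0.11 to 0.068 for Kdr, -0.0063 to 0.42 for Ltk, -1.04 to 0.50 for Mst1r, -0.18 to 0.55 for Ntrk3, -0.50 to 1.50 for Pdgfrb, -0.42 to 0.46 for Ptk7, -0.31 to 0.49 for Ror1, -0.49 to 0.082 for Ryk, -0.50 to 0.46 for Tek and -0.23 to 0.026 for Tyro3. Same-numbered arrays of the genotypes correlated in their deviations from the genotype means by 0.019, 0.052 and 0.131 for numbers 1, 2 and 3. Arrays of unlike number correlated by -0.098 to 0.055. The numbers were not taken as pairs, since the labels do not say that a number marks a shared animal, batch or day. With the replicate block limma called 0 receptor genes, the median log2 fold change was -0.012, and 1 gene, Pdgfra, had an unadjusted p under 0.05 (adjusted p = 0.726). The same count of 1 was reached with the slide row as a covariate (Pdgfra) and without Tg replicate 2 (Ddr2). Signal over background limits the 7 genes detected on 3 to 5 arrays most. Erbb4, Ror2, Ret and Musk did not pass the filter and were tested only in the fit without it, which called no receptor gene. The cause of the turned signs was not tested. All alternatives were planned.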
